A study of Eptatretus atami with 13 samples.

Results

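*NEFM*, the medium chain of the neurofilaments, is represented in the brown hagfish *Eptatretus atami* by the gene model EA24108, 1 of 37562 gene models counted. The model was taken by its identifier, and its name is the match to other species that the study gave it. RNA was sequenced from 13 organs, with 1 library for each of brain, a library labelled adipose tissue, heart, blood cells, gills, skin, slime gland, tongue skeletal muscle, liver, gall bladder, intestine, kidney and ovary. All samples were labelled WT, with normal embryonic development in the treatment field, and neither age nor the number of animals was given. With 1 library per organ there is no replicate error and no test of a difference between organs, so intervals below are 95% exact intervals that cover counting error only, and a count of 0 is given with a floor of 3 fragments in place of an interval.

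Neurofilaments are the intermediate filaments of neurons. They are built from light, medium and heavy chains, fill the axon and set its calibre, and are most abundant in neurons with long, thick axons. In vertebrates the medium chain is used as a marker of neurons and their axons, both in the central nervous system and in the nerves that supply other organs. A nerve that enters an organ carries the neurofilament protein in its axons, while most of the messenger RNA stays in the cell bodies, which lie in the brain, spinal cord and ganglia. Messenger RNA of *NEFM* in an organ is therefore not a direct count of its axons. In bulk RNA, fewer cells of a type and less RNA per cell cannot be told apart.

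The *NEFM* model lies on chromosome 1 by the study's source data, on scaffold ScMYAQb_1156 of the hagfish assembly, from 39773954 to 39780886 on the plus strand. It spans 6933 bp and has 3 exons of 1339, 125 and 2562 bp, separated by introns of 2624 and 283 bp, which gives an exon length of 4026 bp. The study's annotation gives it an intermediate filament domain. No other gene model overlaps it, so reads of an overlapping antisense gene model do not enter its count although strand was not used in counting. The nearest upstream model with reads, *CHD1L*, lies 52.9 kb away on the minus strand, and it ran from 0.818 FPKM in liver to 20.0 FPKM in ovary with 9.60 FPKM in brain. Downstream, EA23259 at 12.7 kb was counted in gall bladder only, at 0.081 FPKM, and *EDRF1-2* at 34.5 kb ran from 0.701 FPKM in liver to 10.9 FPKM in the adipose-labelled library. Neither named neighbour had the contrast of *NEFM* between brain and the other organs.

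Counts were of read ends, so that a fragment usually adds 2, and the assigned total per library ran from 18800367 in gills to 39077785 in tongue muscle. FPKM here is the count per kilobase of exon scaled to library size by the assigned total of read ends. Brain held 75308 *NEFM* read ends, or 899.1 FPKM (890.0 to 908.2). The library labelled adipose tissue held 83318, or 930.7 FPKM (921.8 to 939.7). *NEFM* thus took 0.362% of all assigned read ends in brain and 0.375% in the adipose-labelled library. It was the 56th highest gene model in brain and the 48th in the adipose-labelled library. Among the 1045 models with a symbol it ranked 4 in both, a rank within the part of the annotation that was read. In brain it stood behind *CALM3-3*, a calmodulin, at 1780 FPKM, *RTN1-2*, a reticulon, at 1286 FPKM and *TUBB4B-1*, a tubulin, at 928.9 FPKM.

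**Figure D1:**
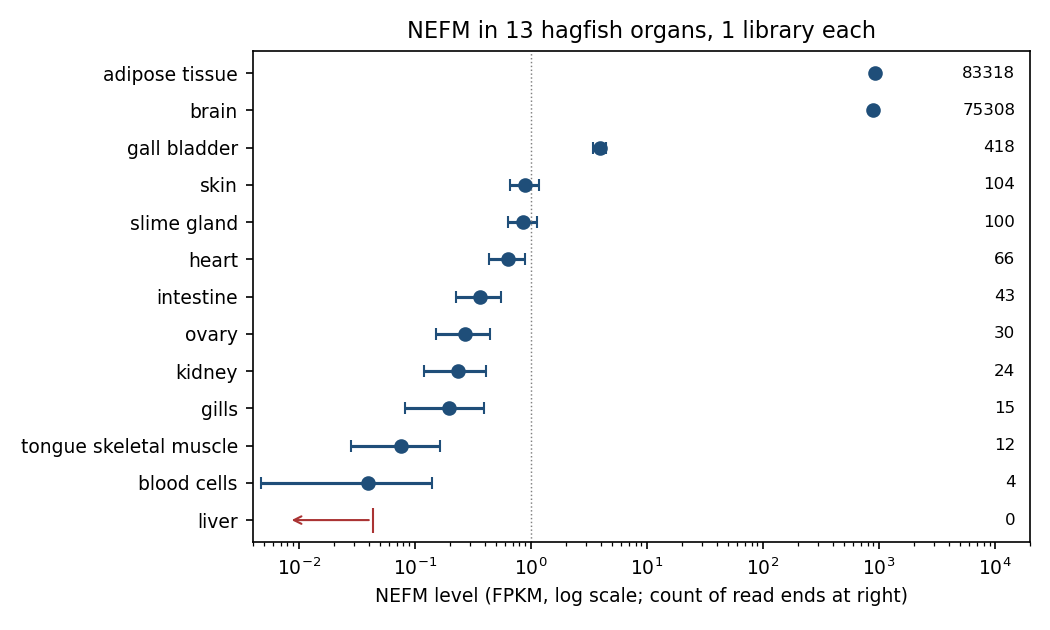
*NEFM* level (FPKM, log axis) in the 13 organs, 1 library each, with 95% exact Poisson intervals on fragments as bars and the count of read ends at the right. Brain and the adipose-labelled library lie at 899.1 and 930.7 FPKM, gall bladder at 3.92 FPKM and every other organ under 1 FPKM (dotted line), and the bar with an arrow in liver marks the floor of 3 fragments at a count of 0.

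The other 11 organs held traces or none. Gall bladder had the highest of them, with 418 read ends and 3.92 FPKM (3.41 to 4.49). Skin had 104 read ends and 0.894 FPKM (0.668 to 1.17), and slime gland had 100 and 0.858 FPKM (0.637 to 1.13). Heart followed with 66 read ends and 0.635 FPKM (0.437 to 0.892). Gall bladder was the only one of the 11 organs above 1 FPKM.

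Intestine had 43 read ends and 0.366 FPKM (0.228 to 0.556), and ovary had 30 and 0.272 FPKM (0.152 to 0.448). Kidney had 24 read ends and 0.235 FPKM (0.121 to 0.410), and gills had 15 and 0.198 FPKM (0.0827 to 0.399). Tongue muscle, the deepest library, had 12 read ends and 0.0763 FPKM (0.0280 to 0.166), and blood cells had 4 and 0.0393 FPKM (0.00476 to 0.142). These 6 organs thus rest on 43 read ends or fewer. Liver had 0 of 34117539 read ends, and the floor of 3 fragments, or 6 read ends, is 0.0437 FPKM there. Of the 10 counts above 0 outside brain and the adipose-labelled library, 8 were even and 2 were odd.

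As a share of brain, the *NEFM* level was 0.436% in gall bladder (0.379% to 0.500%), which is 229.2-fold below brain. It was 0.0994% in skin (0.0743% to 0.130%), 0.0955% in slime gland (0.0708% to 0.126%) and 0.0707% in heart (0.0486% to 0.0993%). Intestine, ovary, kidney and gills lay between 0.0407% and 0.0220% of brain, or 2459-fold to 4537-fold below it. Tongue muscle had 0.00848% and blood cells 0.00437% (0.000529% to 0.0158%), and liver, taken at its floor, was at least 20582-fold lower than brain. With libraries scaled by their totals, gall bladder thus stood apart from the other 10, which all lay under 0.1% of brain. The intervals of skin and slime gland reached past 0.1%.

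Organs were told apart where the interval of the ratio of their levels left out 1. Of the 78 pairs of organs, 64 were apart by this measure with libraries scaled by their totals, and 14 were not. The adipose-labelled library was 1.04-fold above brain (1.02 to 1.05), brain was 229.2-fold above gall bladder (200.05 to 263.8) and gall bladder was 4.39-fold above skin (3.22 to 6.07). Below that point no neighbours in the order were apart. Skin and slime gland had a ratio of 1.04 (0.693 to 1.57), slime gland and heart 1.35 (0.853 to 2.16), and heart and intestine 1.74 (0.980 to 3.14). Intestine, ovary, kidney and gills could not be told apart from one another, nor could tongue muscle and blood cells (1.94, 0.347 to 19.7), nor blood cells and liver. An interval that leaves out 1 covers the reads of these libraries and says nothing of other animals.

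The share of brain depends on how libraries are scaled. With TMM factors in place of totals, slime gland rose to 0.230% of brain, skin to 0.164%, heart to 0.112%, intestine to 0.0662% and tongue muscle to 0.0422%, and liver, at its floor, was at least 3697-fold below brain. Slime gland then stood above skin, and tongue muscle above kidney. Gall bladder stayed the highest of the 11 organs under each of the 3 other scalings tried. With TMM factors it was at 0.506% of brain, so slime gland lay nearer to it than with totals. Liver, at 0 counts, has no place of its own in the order, as its floor with TMM factors (0.0270% of brain) lay above blood cells, gills and ovary.

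The organ specificity of *NEFM* was summarised by tau, which runs from 0 at equal levels in all organs to 1 where a single organ holds the gene. Over the 9 organs that the study's methods use, which leave out the adipose-labelled library, blood cells, gall bladder and slime gland, tau was 0.961 (0.943 to 0.974) on log2(FPKM + 1). Adding blood cells, gall bladder and slime gland gave 0.941 over 12 organs. Adding the adipose-labelled library as well gave 0.863 over 13, since 2 libraries then hold the gene at nearly the same level.

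The adipose-labelled library was near brain in most gene models, *NEFM* among them. The log2 ratio of *NEFM* to brain was 0.05, where the median over the 15364 models with at least 1 FPKM in brain and a count in both was -0.00 and the 5th and 95th percentiles were -0.92 and 0.81. Of these models, 56.2% had a lower ratio than *NEFM*. Within 2-fold of brain were 47 of the 50 neuronal list members with at least 1 FPKM in brain, against 92.3% of all 15418 models at that level. None of the 50 was 10-fold or more below brain, against 0.629% of all models. The nearness was not particular to neuronal genes, as the median member stood at 98.7% of brain in the muscle list, 108.3% in the blood list and 108.9% in the adipocyte list.

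The defining markers of fat were at low levels in this library, though all 4 adipocyte list members were above brain, *ADIPOQ-1* and *ADRB3* on few read ends. *ADIPOQ-1*, named for the adipocyte hormone adiponectin, had 10 read ends there (0.337 FPKM), the second highest level after the 3.43 FPKM of gills. In brain it had 2 read ends (0.072 FPKM), under the floor of 6. *ADRB3*, the beta-3 adrenergic receptor of fat cells, had 64 read ends (1.22 FPKM), the highest of the 13 libraries, against 55 (1.12 FPKM) in brain. The 4 adipocyte list members summed to 99.1 FPKM in the adipose-labelled library and 82.4 FPKM in brain, and ranged from 6.44 FPKM in ovary to 1262 FPKM in tongue muscle in the other organs. Most of these sums came from *GPD1*, a glycerol phosphate dehydrogenase, and *CAVIN1-2*, a caveolar coat protein, which are also used outside fat. As most genes in this library were near their brain level, it is called adipose-labelled here and not read as a second organ with neurofilament. How the library came to be like brain was not tested.

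**Figure D2:**
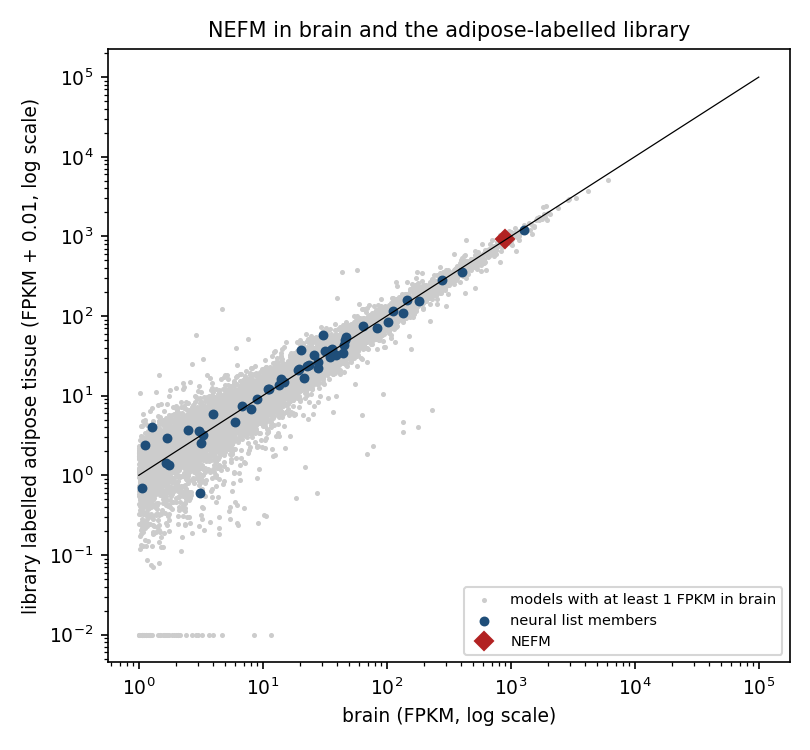
Level of each gene model with at least 1 FPKM in brain, in brain (x axis, FPKM, log) and in the library labelled adipose tissue (y axis, FPKM + 0.01, log), 1 library each, with the line of equal levels. *NEFM* (diamond) and the neuronal list members (dark points) lie along the line, *NEFM* at 899.1 and 930.7 FPKM.

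The traces of *NEFM* were next set beside those of other neuronal genes in the same libraries. The 6 lists of neuronal genes held 67 models by role, in the cytoskeleton, the presynaptic terminal, synaptic adhesion, channels and transporters, secreted factors and central transcription factors, of which 50 reached 1 FPKM in brain. Of these 50, those 10-fold or more below brain numbered 28 in gall bladder, against 15.2% of all 15418 models with at least 1 FPKM in brain. They numbered 36 in skin (16.1% of all models), 33 in slime gland (17.8%), 27 in heart (15.5%), 33 in intestine (18.7%) and 31 in kidney (14.6%). They numbered 23 in ovary (9.74%), 23 in gills (12%), 42 in tongue muscle (39.5%), 33 in blood cells (25.4%) and 40 in liver (40.1%). *NEFM* itself was below that mark in all 11. In each organ the share of the 50 at or past this mark was above that of all models, and the rest of the 50 were nearer to their brain level.

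*NEFM* lay far under the middle of these lists in each organ. The median list member stood at 6.11% of its brain level in gall bladder, where *NEFM* stood at 0.436%. In ovary the median was 15.4% and in gills 13.7%, against 0.0302% and 0.0220% for *NEFM*. In skin the median was 3.54%, in slime gland 3.67%, in heart 7.83%, in intestine 2.17% and in kidney 5.69%. It was 0.560% in tongue muscle, 2.54% in blood cells and 0.692% in liver. The medians over all models ran from 13.9% in liver to 96.5% in ovary.

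List members with a lower share of brain than *NEFM* numbered 13 of 50 in gall bladder, of which 7 had no count there, against 6.23% of all models. They numbered 7 in skin (4.599% of all models), 6 in slime gland (4.73%), 8 in heart (4.68%) and 1 in ovary (2.14%). Of these, 6 in skin and all in slime gland, heart and ovary had no count there. In tongue muscle all 15 members below *NEFM*, and in blood cells all 14, had no count, against 9.33% and 11.4% of all models below *NEFM*. All list members other than *RTN1-2* had a lower FPKM in brain than *NEFM*, so the same low share of brain gave them fewer reads per kilobase to count.

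Among the 11 organs, the highest trace was in ovary for 13 of the 50 members (32.1% of all models), in gills for 12 (18.7%) and in gall bladder, the highest for *NEFM*, for 4 (7.56%). The members whose level reached or passed that of brain in at least 1 of the 11 organs numbered 17, against 72.7% of all models.

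**Figure D3:**
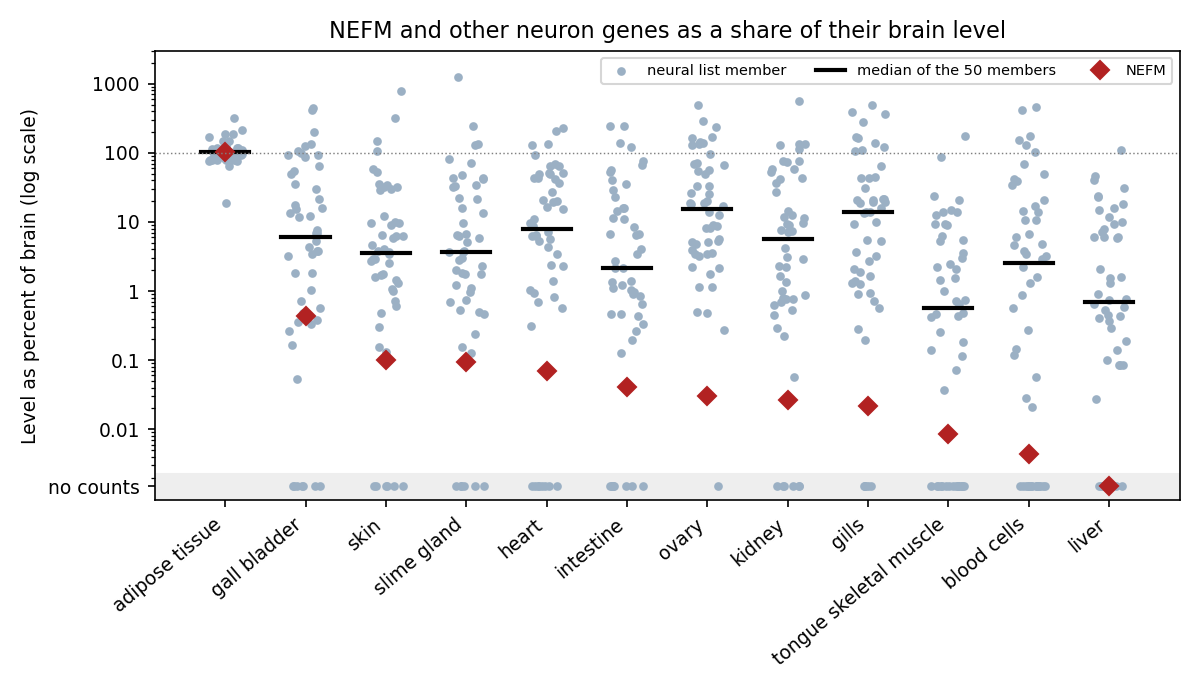
Level in each of 12 organs as a percent of the brain level (log axis) for the 50 neuronal list members with at least 1 FPKM in brain (points), their median (bar) and *NEFM* (diamond), with organs ordered by *NEFM* level and models without counts in the grey band. *NEFM* lies below the bar in all 11 organs other than the adipose-labelled library, from 0.436% against 6.11% in gall bladder to 0 against 0.692% in liver.

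By role, the list of the neuronal cytoskeleton, to which the *NEFM* protein belongs, and the presynaptic list had the highest medians of the 6 in each of the 11 organs except liver. There the transcription factors stood between them. The 9 members of the cytoskeleton list with at least 1 FPKM in brain, of 11, had a median of 30.0% of brain in gall bladder and 48.6% in ovary. This list was drawn broadly and also holds *RTN1-2* and *NSG2*, which are not cytoskeletal proteins. Its median in gall bladder is the value of *RTN1-2*. *TAGLN3*, an actin-binding transgelin of neurons, had 406.7 FPKM in brain and reached 1674 FPKM in gall bladder. *RTN1-2*, a reticulon of the endoplasmic reticulum, ranged from 69.7 to 737.5 FPKM over the 11 organs. *KIF21A-1*, a kinesin motor of axonal transport, had 182.6 FPKM in brain and up to 70.7 FPKM in the 11 organs, in blood cells. *NSG2*, a vesicle protein of neurons, had 83.0 FPKM in brain, 17.6 FPKM in gall bladder and 25.5 FPKM in gills. None of these had the near absence of *NEFM* outside brain.

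The 8 presynaptic members, of 9, had a median of 51.8% of brain in gall bladder and 149% in gills. *NSF*, the ATPase that takes SNARE complexes apart after vesicle fusion, had 281.0 FPKM in brain and 4.05 to 52.9 FPKM in the 11 organs. *RAB3A-2*, a GTPase of synaptic and secretory vesicles, had 44.5 FPKM in brain but 123.7 FPKM in gills and 109.2 FPKM in intestine. *PTPRN2-2*, a protein of dense-core vesicles, had 111.3 FPKM in brain, 18.8 FPKM in ovary and 0.398 FPKM in gall bladder. *ICA1-1*, a protein of secretory granules, had 47.2 FPKM in brain and at most 12.8 FPKM in the 11 organs, in kidney. *PTPRN2-2* was the only presynaptic member with a lower share of brain than *NEFM* in gall bladder.

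Of the 6 lists, synaptic adhesion had the median nearest to *NEFM* in gall bladder. The 14 members with at least 1 FPKM in brain, of 18, had a median of 0.790% of brain in gall bladder, 4.25% in heart and 3.72% in ovary. *CADM2-2*, an adhesion molecule of synapses, had 144.4 FPKM in brain, 71.7 FPKM in heart and 2.67 FPKM in gall bladder. *NRCAM-4*, an adhesion molecule of axons, had 45.8 FPKM in brain, 20.0 FPKM in gills and 19.4 FPKM in slime gland. *GPHN-2*, the scaffold gephyrin of inhibitory synapses, had 45.4 FPKM in brain and 2.44 FPKM in gall bladder. *NLGN1-1*, a neuroligin, had 31.9 FPKM in brain and at most 2.06 FPKM in the 11 organs, in heart.

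Of the channels and transporters, 7 of 15 reached 1 FPKM in brain. *UNC80-1*, a subunit of the sodium leak channel complex, had 38.9 FPKM in brain and 19.7 FPKM in heart. *KCNK2*, a potassium leak channel, had 14.8 FPKM in brain and at most 3.06 FPKM in the 11 organs. *KCND2-2*, a voltage-gated potassium channel, had 3.18 FPKM in brain and at most 0.259 FPKM in the 11 organs. *SLC6A11-1*, a GABA transporter, had 3.14 FPKM in brain, but in slime gland it had 39.7 FPKM and in skin 24.9 FPKM.

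The 4 secreted factors and receptors had medians of 2.09% of brain in gall bladder and 3.45% in ovary. *VWC2L*, a secreted protein of the brain, was the member most like *NEFM* in having its highest trace in gall bladder, at 15.96 FPKM against 134.7 FPKM in brain. *AVP*, the precursor of the vasopressin family of hypothalamic peptides, had 101.5 FPKM in brain, 5.35 FPKM in ovary and 0.728 FPKM in gall bladder. *TAFA5-2*, a secreted neuronal factor, had 23.6 FPKM in brain and 11.7 FPKM in blood cells. *PRLHR*, the receptor of the prolactin-releasing peptide, had 3.06 FPKM in brain and no count in gall bladder.

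The 8 transcription factors at 1 FPKM or more in brain, of 10, act in neurons of the central nervous system, and some also act in other tissues. *SP9-3* had 64.2 FPKM in brain, 0.0348 FPKM in gall bladder and 6.51 FPKM in gills. *SOX14-1* had 36.2 FPKM in brain and 0.0606 FPKM in gall bladder. By these values both had a lower share of brain in gall bladder than *NEFM*. Each rested on 2 read ends there, under the floor of 6, so these shares are uncertain. *SP8* ran from 5.18 to 46.7 FPKM over the 11 organs with 34.9 FPKM in brain, and *LHX9* had 21.3 FPKM in brain and 2.64 FPKM in gall bladder.

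In gall bladder, markers of other cell types stood beside the *NEFM* trace. *LMOD1*, a leiomodin of smooth muscle, had 72.2 FPKM in gall bladder, the highest of the 13 organs, against 1.27 FPKM in brain. The other 11 muscle list members summed to 5.12 FPKM there, below the 11.7 FPKM of brain. The epithelial list summed to 99.5 FPKM in gall bladder against 11.9 FPKM in brain, and the blood list to 94.4 FPKM against 96.8 FPKM. The epithelial sum was higher in slime gland (2285 FPKM), gills (503.5 FPKM) and skin (196.9 FPKM). Most of it came from 1 member in each, *PPL-1*, whose name is uncertain, in slime gland (2269 FPKM) and *TSPAN1* in gills (422.1 FPKM) and skin (130.9 FPKM). Of the 4 markers of peripheral nerve and glia, *PMP22-1*, a myelin protein that other tissues also use, had 27.7 FPKM in gall bladder, 44.8 FPKM in skin and 15.1 FPKM in brain. *ERBB4-5*, a neuregulin receptor, had 7.22 FPKM in gall bladder, 102.8 FPKM in brain and 113.7 FPKM in kidney. *FOXD3-2*, a factor of the neural crest and its glia, had 0.439 FPKM in gall bladder, 1.40 FPKM in brain and at most 0.670 FPKM in the other organs outside the adipose-labelled library. *ARTN-1*, whose name is uncertain, was highest in slime gland at 11.5 FPKM, with 0.415 FPKM in gall bladder. Over the 11 organs the sum of these 4 ran from 1.71 FPKM in tongue muscle to 123.8 FPKM in kidney, where *NEFM* had 24 read ends. The sum was 35.8 FPKM in gall bladder, 121.3 FPKM in brain and 128.1 FPKM in the adipose-labelled library. Their part in the trace of *NEFM* was not tested.

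How low the traces are for a gene of this abundance was described with the 253 other models of at least 10000 counts in brain. Their median share of brain in gall bladder was 38.3%, and 23 of them had a lower share there than *NEFM*. In ovary 1 of the 253 was lower, in gills 4, in kidney 5, in slime gland 5, in skin 6, in tongue muscle 7, in intestine 9, in heart 11 and in blood cells 13. Liver had no count for 9 of them. The model EA03728, with 12195 counts in brain, had none in gall bladder, and EA83066, with 64216 counts in brain, had 2 in ovary, where *NEFM* had 30. Both were chosen as the lowest in their organ after their values were seen.

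Of the 1242 models with at least 100 FPKM in brain, 1224 reached over 1% of their brain level in at least 1 of the 11 organs, and 8 stayed below the 0.436% of *NEFM* in all of them. Setting the limit at 5% left 71 models other than *NEFM*. Their median share of brain was 0.400% in gall bladder, and 38 of the 71 had a lower share there than *NEFM*, so that *NEFM* was near the middle of this set in gall bladder. In ovary their median was 1.10% and 3 of 71 were lower than *NEFM*, in heart 0.584% and 16, in gills 0.425% and 11, and in skin 0.316% and 15. Their highest trace lay in ovary for 23 (32.1% of all models with at least 1 FPKM in brain) and in heart for 16 (7.13%). It lay in gills for 9 (18.7%) and in gall bladder for 3 (7.56%). As the set was chosen by these values, its counts are a description.

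Some of the other intermediate filament genes were highest in other organs, while *IFFO1* and *KRT75* were highest in the same libraries as *NEFM*. Of the 11 keratins and related genes with a symbol, 6 reached 1 FPKM in some organ. *KRT14-4*, named for a keratin of basal epithelium, had 821.6 FPKM in gall bladder, 730.5 FPKM in ovary, 192.0 FPKM in gills and 1.44 FPKM in brain. *KRT8-5*, whose name is uncertain, was highest in slime gland at 731.4 FPKM, followed by skin at 16.7 FPKM. *KRT5-1* and *KRT8-4* were highest in kidney, at 7.76 and 3.12 FPKM. *IFFO1*, an intermediate filament family member, was highest in the adipose-labelled library at 111.2 FPKM and in brain at 108.8 FPKM, and had 2.20 to 26.3 FPKM in the other 11 organs. *KRT75* had nearly all of its counts in the same libraries as *NEFM*, at 3.51 FPKM in brain, 2.55 FPKM in the adipose-labelled library, 0.0889 FPKM in tongue muscle and 0.0228 FPKM in kidney, with no count in the other organs. *KRT5-2*, under 1 FPKM throughout, had 6 counts in brain, 4 in the adipose-labelled library and none elsewhere. The light and heavy neurofilament chains were not among the models with a symbol and are not analysed here. As the symbols were read in part, this says nothing of the rest of the annotation.

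**Figure D4:**
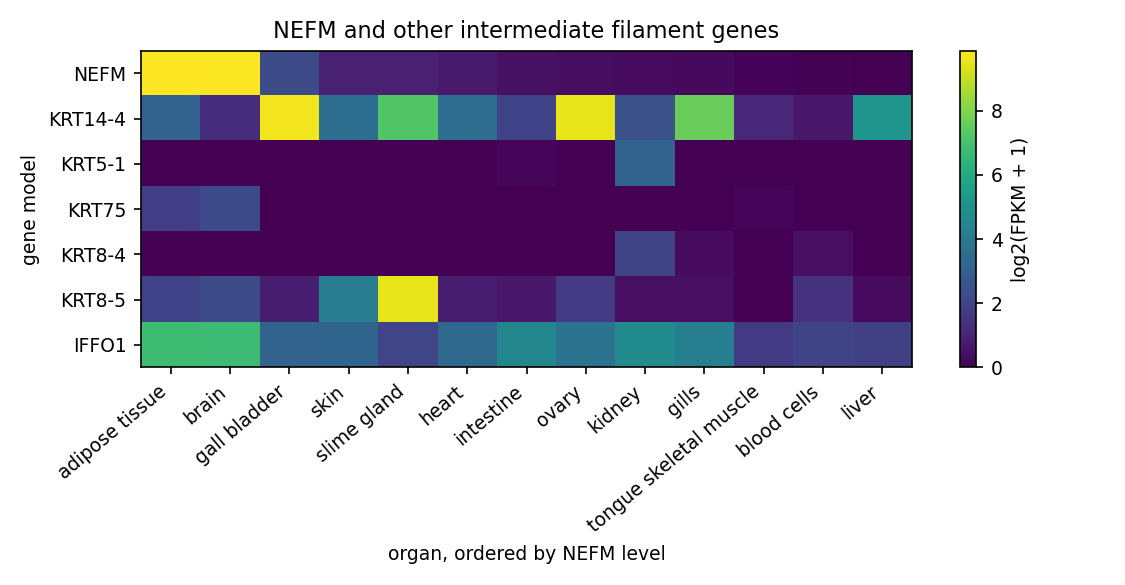
Level of *NEFM* and of the 6 keratins and related genes with at least 1 FPKM in some organ, as log2(FPKM + 1) (colour scale), in 13 organs ordered by *NEFM* level, 1 library each. *NEFM*, *IFFO1* and *KRT75* are highest in brain and the adipose-labelled library, *KRT14-4* in gall bladder and ovary, and *KRT8-5* in slime gland.

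Likeness to *NEFM* was measured as Pearson's correlation of log2(FPKM + 1) over the 13 organs among the 8922 models with at least 10 FPKM in brain. As brain and the adipose-labelled library carry most of the variation, a high value mainly marks genes of those libraries, and 545 models lay above 0.9. The 10 most like models had correlations of 0.989 to 0.996, and none of them has a symbol in the table used here. Their brain levels ran from 11.97 to 327.4 FPKM. The highest trace lay in gall bladder for 7 of the 10, against 7.56% of all models with at least 1 FPKM in brain. Of those 15418 models, 1707 had no count in liver and 1761 had none in blood cells. Of the 10 most like *NEFM*, 9 had no count in liver and 7 had none in blood cells. Their counts in brain ran from 124 for EA47920 to 10075 for EA49476, against 75308 for *NEFM*. For models of few counts, an absent count elsewhere can reflect depth alone, and a highest trace can rest on a few read ends. The nearest, EA45166, had 40.5 FPKM in brain, 37.1 FPKM in the adipose-labelled library and 0.672 FPKM in gall bladder. The most abundant, EA49476, had 327.4 FPKM in brain, 292.0 FPKM in the adipose-labelled library and 7.05 FPKM in gall bladder, or 2.15% of brain. The gall bladder values entered the measure, so this likeness in gall bladder is a description.

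Among the 535 ranked models with a symbol, the 10 most like were *SOX14-1* and *CNTN2-1* (0.983 each), *MAPKAPK2-3* (0.982), *PPP3R1-1* (0.965), *NLGN1-1* (0.963), *CNIH3-3* (0.957), *LSAMP-4* (0.947), *VWC2L* (0.945), *AVP* (0.932) and *LMO1-1* (0.931). Of these, 7 are members of the neuronal lists, among them the adhesion genes *CNTN2-1*, *NLGN1-1* and *LSAMP-4*, and *CNIH3-3*, a partner of glutamate receptors. At most 38 of the 535 were list members, as 38 members reached 5 FPKM in brain and the ranking asked for 10 FPKM. The lists were chosen with these data known, so the 7 are a description. *MAPKAPK2-3* is named for a stress-activated kinase and *PPP3R1-1* for the regulatory subunit of calcineurin. *CNTN2-1*, a contactin of axons, had 20.2 FPKM in brain, 37.7 FPKM in the adipose-labelled library and at most 0.189 FPKM in the 11 other organs. *LMO1-1*, a cofactor of transcription, had its highest trace in gall bladder, at 8.61 FPKM against 59.3 FPKM in brain, as did *VWC2L*. The other 8 had their highest trace in another organ, heart for *CNTN2-1*, *NLGN1-1* and *CNIH3-3* and ovary for *LSAMP-4* and *AVP*.

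**Figure D5:**
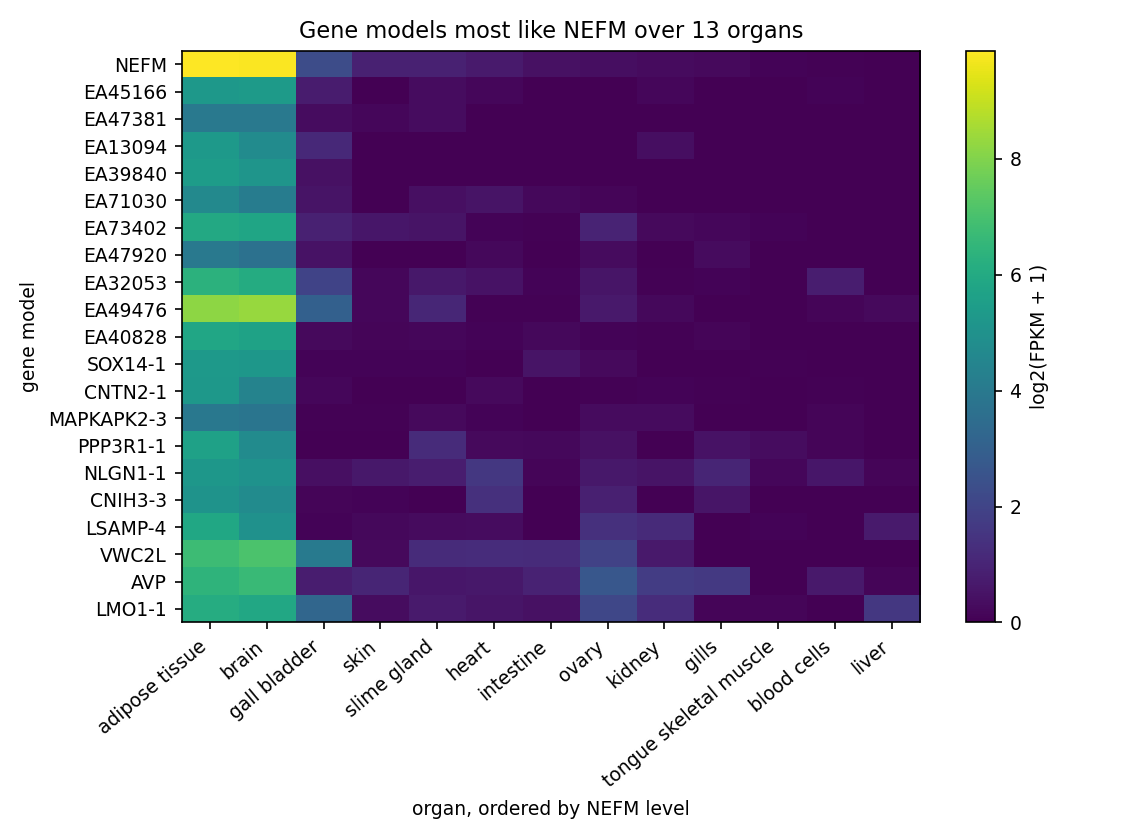
Level of *NEFM*, of the 10 gene models most like it and of the 10 most like it among those with a symbol, as log2(FPKM + 1) (colour scale), in 13 organs ordered by *NEFM* level, 1 library each. All 20 are highest in brain or the adipose-labelled library, with over 1 FPKM in gall bladder for *VWC2L*, *LMO1-1*, EA49476, EA32053 and EA13094.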

How the data were processed

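RNA was extracted with Trizol, and strand-specific TruSeq libraries were sequenced in pairs of reads. Per the labels and file headers, the authors aligned with STAR (2.5.2b) and counted with featureCounts (1.6.1, while the study's methods name another version). The deposited values are raw counts per gene model, not normalized, with neither a paired nor a strand option, and reads with several matches are left out by default. Of the counts from 1 to 4, 83.6% were even, so intervals (95%, exact Poisson and Clopper-Pearson) were computed on pairs of read ends. The floor was 3 fragments. FPKM was computed from the exon length the authors deposited (unit other, in bases) and the assigned totals, whose median was 26465723. Depth limits each trace to the counting interval given with it.

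Symbols came from a source table of the study, read in part, which names 1045 models. The rows of all but 5 of the 118 list members carry chromosome 1. The lists and the ranks among models with a symbol thus do not cover the whole genome. The rows of the other 5 (*SCN2A-2*, *ARTN-1*, *KRT8-5*, *MYL3-2* and *PPL-1*) do not carry chromosome 1. By this alone they were taken to hold another gene's position, so these names are treated as uncertain. The 13 lists and the gene itself were chosen with earlier results of these data known. Genes named are the 4 highest in brain of each neuronal list, the filament genes at 1 FPKM or more, the adipocyte and peripheral nerve lists, the neighbouring models and the 10 most like *NEFM*. *LMOD1*, EA03728, EA83066 and the genes above *NEFM* in brain were named after their values were seen. The summed muscle list was highest in tongue muscle (28656 FPKM, of which *MYL2-1* gave 28575.5). The blood list was highest in blood cells (254.2, *LYL1-1* 170.9), and the liver, kidney and intestine list in liver (7719, *SERPINF1-3* 7621). The epithelial list was highest in slime gland (2285, *PPL-1* 2269) and lowest in tongue muscle, and the adipocyte list was highest in tongue muscle (1262). As the lists were chosen with these data known, their highest organs are a description and no test of the lists.

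Alternatives were TMM factors (edgeR 4.0.16), size factors of DESeq2 (version 1.42.0), library totals that leave out the 10 highest genes, and other filters, organ sets and measures of likeness. Software was Python 3.11.15 with pandas 2.3.3, numpy 2.4.6, matplotlib 3.10.9 and scipy 1.17.1, and R 4.3.3. No sequence is shown, as no reference was used here.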

Additional observations from a re-analysis of the deposited data

How the results depend on the processing

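With 1 library per organ, no library could be left out or tested, and depth limits the organs under gall bladder to counts of 104 or fewer. No paired analysis was possible because each organ is 1 library and no test was made. As a share of brain, the *NEFM* level moved beyond its counting interval with TMM factors in the adipose-labelled library (101.6%), gall bladder (0.506%), heart (0.112%), intestine (0.0662%), slime gland (0.230%), skin (0.164%) and tongue muscle (0.0422%). With DESeq2 size factors it moved in heart (0.112%), intestine (0.0634%), slime gland (0.237%), skin (0.160%) and tongue muscle (0.0466%), and with totals without the 10 highest genes in slime gland (0.138%) and skin (0.150%). Relative to brain, TMM factors shifted all genes by 2.48 on the log2 scale in liver, 2.32 in tongue muscle and 1.27 in slime gland. The liver limit was then at least 3697-fold below brain, against 3633-fold with DESeq2 size factors and 6893-fold without the 10 highest genes. Tau was 0.941 over 12 organs, 0.863 over 13 organs and 0.9996 on linear FPKM. The medians of the neuronal lists stayed within the intervals of the median over members, but some moved by over 1.5 times. Over members of 5 FPKM or more in brain, the median was 8.87% of brain in ovary, 3.63% in kidney and 1.37% in intestine, with no filter it was 3.09% in kidney, and with the adipose-labelled library in place of brain, an alternative chosen after seeing the data, it was 3.75% in gall bladder. Under that last alternative all 11 *NEFM* shares stayed within their intervals. Of the 10 models most like *NEFM*, 6 stayed among the 10 with a pseudocount of 0.1 FPKM, 4 with all models at 1 FPKM or more in brain and 0 with Spearman's correlation. Of the 10 with a symbol, 3 stayed at 1 FPKM or more and 1 with Spearman's correlation. The rankings of likeness thus depend on the measure.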
